A study of Schizosaccharomyces pombe with 8 samples.

Results

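The HSP70 co-chaperones described here are the Hsp40 genes psi1 (SPCC830.07C) and mas5 (SPBC1734.11) and the BAG-domain genes bag101 (SPBC16G5.11C) and bag102 (SPBC530.03C) of the fission yeast Schizosaccharomyces pombe. They were found by gene symbol in the array annotation, which pairs each with 1 probe set, and all 4 were among the 2892 fission yeast genes tested. Heat split them. At 43C psi1 rose 9.44-fold and mas5 2.80-fold, bag102 fell, and the direction of bag101 depended on how the arrays were scaled.

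HSP70 chaperones bind unfolded stretches of protein and let go of them in a cycle driven by ATP. Hsp40 proteins carry a J-domain, bring clients to HSP70 and stimulate its ATP hydrolysis, which closes HSP70 on the client. BAG proteins bind the ATPase domain of HSP70 and speed the exchange of nucleotide, which releases the client. The products of psi1 and mas5 are the fission yeast relatives of the budding yeast Hsp40 proteins Sis1 and Ydj1, and Mas5 is also known in fission yeast as a repressor of the heat shock factor Hsf1.

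The study compared the strains opi10- and opi10+, named for the state of the opi10 gene. The labels do not say how the opi10- allele was made. The opi10 product is related to human Hikeshi, an import carrier that brings HSP70 into the nucleus during heat stress. Each strain was grown to mid-log phase in liquid Edinburgh minimal medium at 30C and sampled before heat, at the end of 1 h at 43C, and 1 h or 3 h after its return to 30C. There was 1 array for each strain and condition, 8 in all, and their number limits the precision of every value below.

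The median signal of fission yeast probe sets lay between 492 and 517 at 43C and between 922 and 1096 on the other 6 arrays. On the log2 scale the median change of all tested genes at 43C was -0.91 as deposited and -0.07 after quantile normalization, which gives every array the same distribution of signals. Centring on 18 hybridization controls, which are added to the labelled cRNA, left that median at -0.91. The controls track hybridization and not RNA per cell. Neither living cells nor RNA per cell was read here, and the cause of the lower median at 43C was not tested. Changes below are quantile normalized, and so relative to other genes, unless the deposited scale is named. The annotation names no probe set for opi10, so its level was not read. Probe sets of budding yeast, which share the array, had a median signal of 2.46, far below all values of the 4 genes.

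The Hsp40 gene psi1 was the most heat-responsive of the 4. In opi10- its deposited signal was 1245 before heat, 11159.5 at 43C, 3493 at 1 h of recovery and 3063 at 3 h. In opi10+ it was 1567, 12149, 5026 and 2905 at the same times. In both strains the order was 43C, 1 h, 3 h and before heat from high to low, and both 43C arrays stood above all 6 others. At 43C psi1 was the 10th brightest of all 10928 probe sets in opi10- and the 3rd in opi10+, at 85.7% and 90.1% of the brightest signal of its array, so its change may be understated. No saturation calls were used here.

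At 43C psi1 rose by 3.24 ± 0.14 log2 (SE, 2 arrays per condition), with an adjusted p of 1.22e-05 by limma over all 2892 genes. The 95% interval was 2.91 to 3.57, and 19 genes rose further. After 1 h of recovery psi1 stood 1.62 ± 0.14 log2, or 3.06-fold, above its level before heat (limma, adjusted p = 0.000545). After 3 h it was still 1.03 ± 0.14 log2, or 2.04-fold, above it (limma, adjusted p = 0.00359). It had fallen by 1.62 log2 relative to 43C at 1 h (limma, adjusted p = 0.000166) and by a further 0.58 between 1 h and 3 h (limma, adjusted p = 0.0153). That last step is less secure, since its call was lost without the opi10+ array at 1 h (adjusted p = 0.126), without that at 3 h (-0.37, adjusted p = 0.075), and with hybridization control centring (0.0795). Every step of psi1 had the same direction on the deposited scale, with a rise of 3.04 log2 at 43C. Set against the median change of all genes on that scale, this rise is a difference of 3.96. With median centring the fall between 43C and 1 h was larger, at -2.45 log2 for psi1.

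The other Hsp40 gene, mas5, rose less and came back further. Its deposited signal in opi10- was 4409.6 before heat, 8962 at 43C, 4620.5 after 1 h and 2033 after 3 h of recovery. In opi10+ it was 3733, 10118, 6452 and 3301. Both strains had their highest mas5 signal at 43C and their lowest at 3 h of recovery, below the level before heat. At 1 h the strains differed, with opi10- back near its level before heat and opi10+ well above it.

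At 43C mas5 rose by 1.49 ± 0.22 log2, with a 95% interval of 0.95 to 2.03 (limma, adjusted p = 0.00107). As deposited mas5 rose by 1.23, which is 2.14 above the median change of all genes there, and with median centring by 2.14. Its mean at 1 h of recovery was 0.50 ± 0.22 log2 above that before heat, which did not pass the threshold (limma, adjusted p = 0.105). Without the opi10- array before heat this difference was 0.86 and was called (adjusted p = 0.0192). Leaving out that of opi10+ instead gave 0.14 (0.59). At 3 h mas5 was at -0.62 ± 0.22 relative to before heat (limma, adjusted p = 0.0655). That value was called on the deposited scale, at -0.64 (adjusted p = 0.0439), with hybridization control centring (0.0295) and with median centring (0.0192). It was also called without the opi10+ array before heat, at -0.98 (adjusted p = 0.013), or at 3 h (0.0422), but stood at -0.27 without the opi10- array before heat (0.375) and -0.32 without that at 3 h (0.371). The drop from 43C to 3 h passed the test, at -2.11 ± 0.22 log2 (limma, adjusted p = 0.000277), as did those from 43C to 1 h, at -0.99 (adjusted p = 0.00792), or -1.77 with median centring, and from 1 h to 3 h, at -1.12 (0.00808). The call for the step to 1 h was lost without the opi10- array at 1 h (adjusted p = 0.0746), and that for the step to 3 h without the opi10+ array at 1 h (0.0776) or that of opi10- at 3 h (0.0629). In the order of conditions, the level before heat was therefore not separated from either neighbour.

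**Figure D1:**
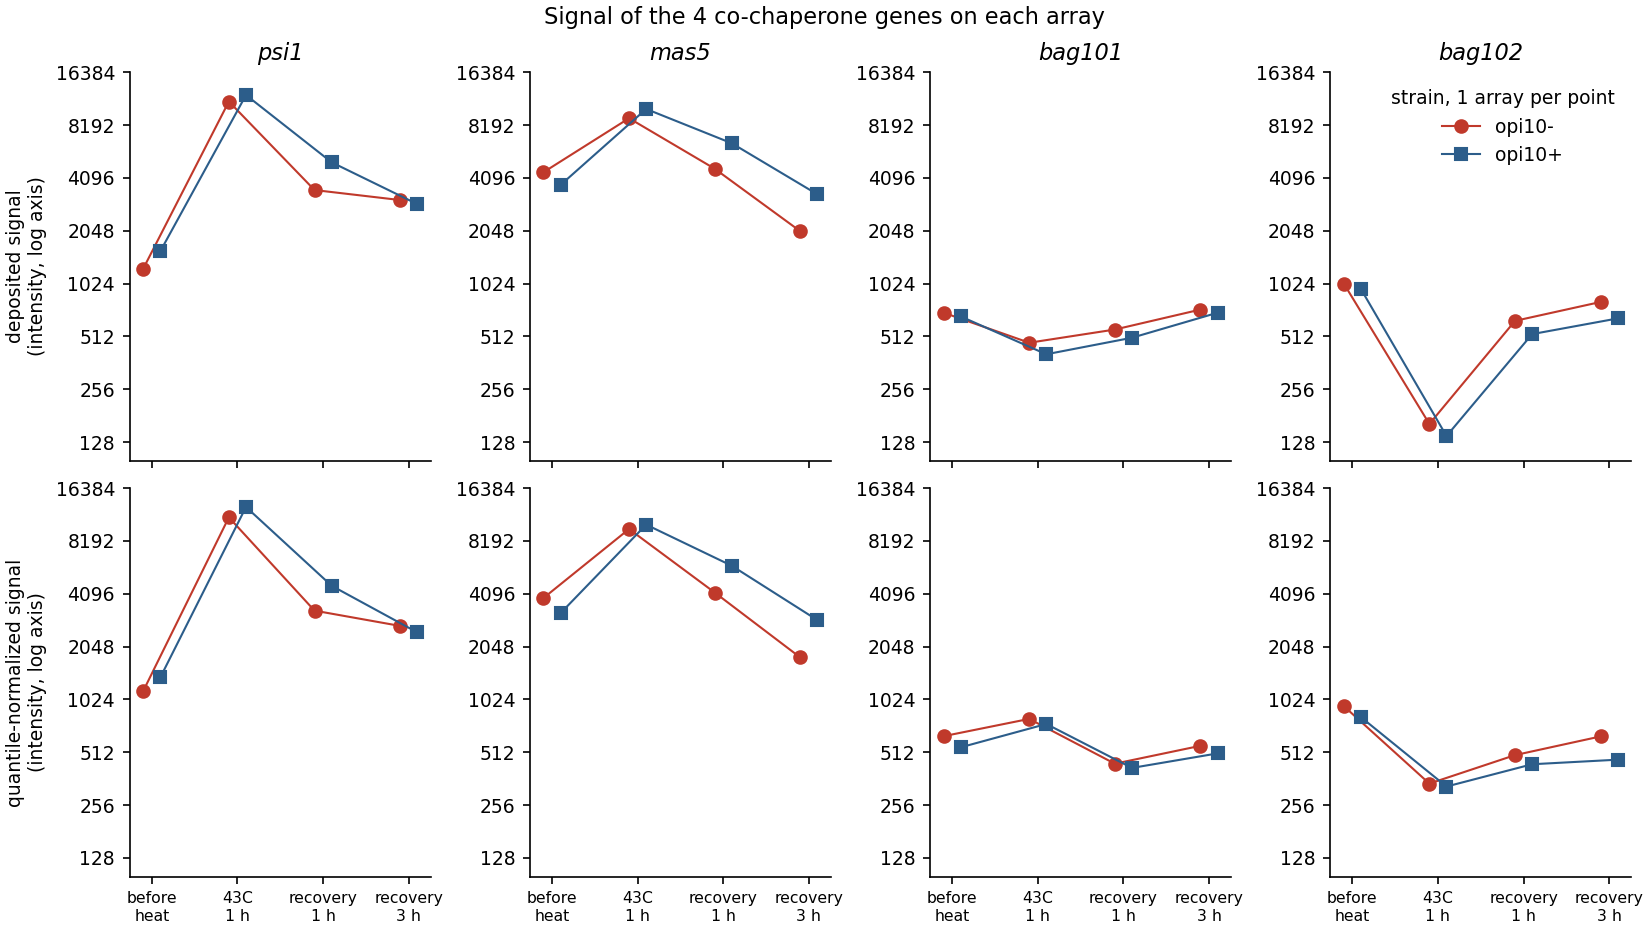
Signal of psi1, mas5, bag101 and bag102 on each array, as deposited (top) and after quantile normalization (bottom), on a log axis, with 1 array per point, opi10- in red circles and opi10+ in blue squares. The Hsp40 genes peak at 43C, bag102 is lowest there, and bag101 is lowest there as deposited but highest there after normalization.

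Of the BAG-domain genes, bag102 went down as psi1 and mas5 went up. In opi10- its deposited signal was 1025 before heat, 162 at 43C, 628 at 1 h of recovery and 804 at 3 h. In opi10+ it was 954, 138, 528 and 648. Both 43C arrays stood below all 6 others, and in both strains the level climbed through recovery without reaching that before heat. Both BAG proteins of fission yeast are known as partners of HSP70 that also associate with the proteasome.

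At 43C bag102 fell by 1.35 ± 0.11 log2, or 2.55-fold, with a 95% interval of -1.60 to -1.09 (limma, adjusted p = 7.11e-05). On the deposited scale the fall was larger, at -2.60 log2, or 6.06-fold (limma, adjusted p = 1.38e-06). Set against the median change of all genes on that scale, this is a difference of -1.68. At 1 h of recovery bag102 was at -0.89 ± 0.11 relative to before heat (limma, adjusted p = 0.00121). At 3 h it was at -0.67 ± 0.11 (limma, adjusted p = 0.00518), and this call was lost with hybridization control centring, where the value was -0.36 (adjusted p = 0.175). The climb from 43C to 1 h was 0.46 log2 (limma, adjusted p = 0.00828), or 1.83 as deposited, and was not called without the opi10- array at 43C (adjusted p = 0.0641) or that of opi10+ at 1 h (0.0651). From 43C to 3 h it was 0.68 (limma, adjusted p = 0.00135), or 2.15 as deposited. The step from 1 h to 3 h, at 0.21 (limma, adjusted p = 0.144), passed the test only on the deposited scale, at 0.32 (0.0342), among the alternatives run. It was 0.071 without the opi10- array at 3 h and 0.36 without the opi10+ array at 3 h, neither called.

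The other BAG-domain gene, bag101, changed least of the 4 at 43C against before heat, and no single direction can be given for it there. In opi10- its deposited signal was 699 before heat, 471 at 43C, 560.2 at 1 h of recovery and 728 at 3 h. In opi10+ it was 665, 405, 503 and 699. As deposited, the 43C signals were the lowest of each strain, and those at 3 h the highest. The median of all genes fell further at 43C, so that after normalization bag101 was highest there, with normalized signals of 633, 794, 441 and 558 in opi10- and 547, 742, 417 and 505 in opi10+.

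At 43C bag101 rose by 0.38 ± 0.08 log2 after quantile normalization (limma, adjusted p = 0.00497), and fell by 0.62 ± 0.09 on the deposited scale (adjusted p = 0.00046), which is 0.29 above the median change of all genes there. With hybridization control centring it also fell, by 0.62 (adjusted p = 0.00347). At 1 h of recovery it was below its level before heat on both scales, at -0.44 ± 0.08 normalized (limma, adjusted p = 0.00472) and -0.35 as deposited (0.0197). This call was lost without the opi10- array at 1 h (adjusted p = 0.0515) and with hybridization control centring (0.246). At 3 h the difference from before heat was -0.14, with a 95% interval of -0.34 to 0.05 (limma, adjusted p = 0.187), and its sign turned to 0.064 as deposited (0.612) and 0.15 with hybridization control centring (0.619). Between 43C and 1 h the gene changed by -0.82 normalized (limma, adjusted p = 0.000249) and by 0.27 as deposited (0.0275), and between 43C and 3 h by -0.52 (0.0012) and 0.69 (0.000251). From 1 h to 3 h it rose on both scales, by 0.30 (limma, adjusted p = 0.0224) and 0.42 (0.0123), though the first call was lost without any 1 of the arrays at 1 h or 3 h (adjusted p from 0.0795 to 0.145), with hybridization control centring (0.0744) and without a strain term (0.051).

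**Figure D2:**
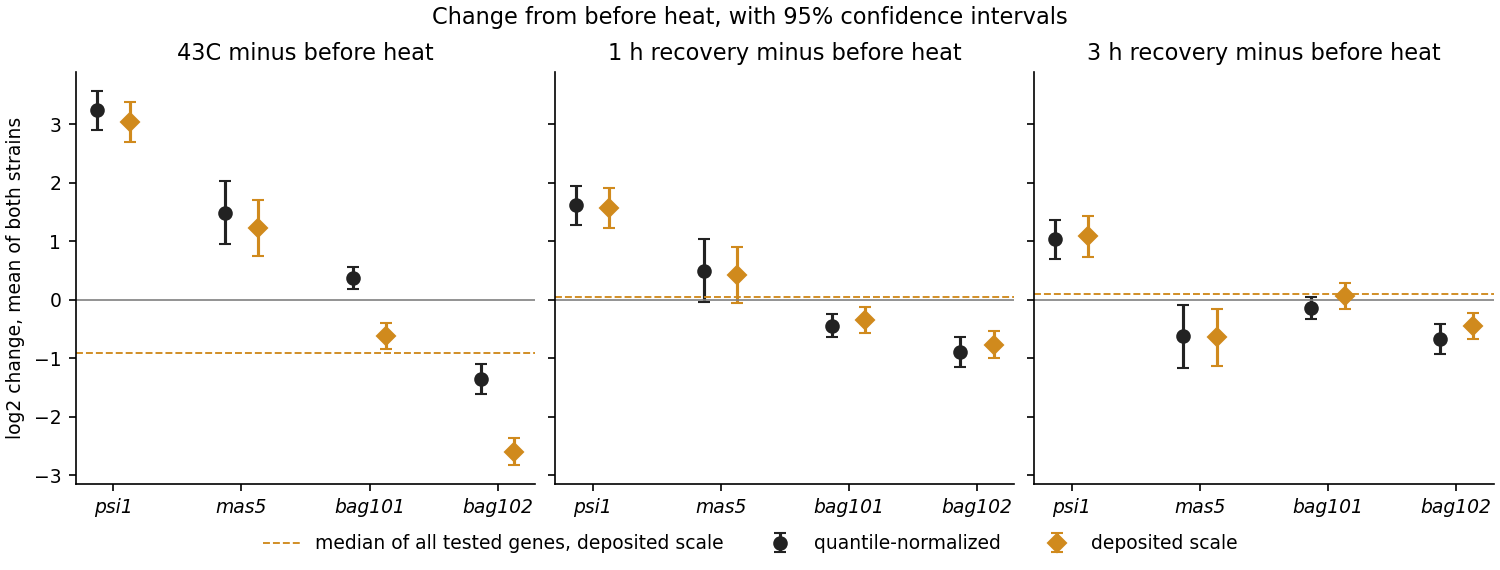
Change of each gene from before heat on the log2 scale, as the mean of both strains with 95% confidence intervals, after quantile normalization (black) and on the deposited scale (orange), whose median over all tested genes is the dashed line. At 43C psi1 is at 3.24 and mas5 at 1.49, bag101 lies on either side of 0 by scale, and bag102 is at -1.35 or -2.60.

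Counted together, 3 of the 4 genes rose and 1 fell at 43C, against 32.8% and 39.8% of all tested genes, while as deposited 2 rose and 2 fell, against 11.2% and 73.7%. At 1 h of recovery 1 stood above its level before heat and 2 below it, and 25.6% of all genes had risen and 27.3% fallen, or 24.8% and 23.2% as deposited. At 3 h these were 1 and 1 of the 4, and 19.7% and 22.2% of all genes, or 1 and 2 of the 4 and 26.8% and 11.4% as deposited. With this many genes changed, a call alone does not set the 4 apart, and their sizes say more. From 43C to 1 h of recovery 1 gene, bag102, rose and 3 fell, as did 35.1% and 30.3% of all genes. The same counts held from 43C to 3 h, against 37.2% and 33.9%. As deposited, both comparisons had 2 rises and 2 falls, against 78.6% and 7.30% of all genes at 1 h and 78.4% and 7.47% at 3 h. From 1 h to 3 h bag101 rose and the Hsp40 genes fell, as did 23.4% and 23.5% of all genes, and as deposited both BAG genes rose, against 27.3% and 13.7%.

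Between the quantile-normalized and deposited scales, the share of the 43C change still present in recovery differed mainly for the BAG genes. For psi1, 46.1% of the log2 rise was left after 1 h in opi10- and 53.6% in opi10+, and 37.3% and 26.3% after 3 h. For mas5 the share at 1 h was 8.06% in opi10- and 53.5% in opi10+, and by 3 h the rise was gone in both strains. For bag101, whose 43C change turned with the scale, the share at 1 h was -158% in opi10- and -87.7% in opi10+. As deposited these were 56.2% and 56.5%. At 3 h the bag101 shares were -55.3% and -25.9%, or -10.5% and -9.96% as deposited. For bag102, 63.6% of the fall was left at 1 h in opi10- and 68.2% in opi10+, and 39.5% and 61.7% at 3 h. As deposited, the bag102 shares were smaller, at 27.2% in opi10- and 31.5% in opi10+ at 1 h and 13.5% and 20.6% at 3 h. On that scale psi1 kept 46.9% and 56.8% at 1 h and 40.9% and 30.0% at 3 h, so bag102 kept more of its change than psi1 after normalization and less as deposited. These shares come from single arrays and were not tested against each other. No shares were computed with median centring. There, as means of both strains, mas5 stood at 2.14 at 43C and 0.36 at 1 h, or 1.49 and 0.50 quantile normalized. At 1 h psi1 was at 1.51 from before heat and -2.45 from 43C there, or 1.62 and -1.62 quantile normalized. The shares of the Hsp40 genes therefore depend on the scale too.

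Over the 8 arrays, psi1 and bag102 ran most closely opposed, with a Pearson r of -0.94, or -0.96 as deposited. The Hsp40 genes ran together, with r = 0.79, or 0.73 as deposited. The BAG genes had r = -0.23 after normalization and 0.90 as deposited, so their likeness depended on the scale. So did that of bag101 to the Hsp40 genes, with r = 0.45 for psi1 and 0.49 for mas5, or -0.88 and -0.93 as deposited. For mas5 and bag102 r was -0.69, or -0.83 as deposited. The arrays share their conditions and scaling, and these values describe the 8 arrays without a test.

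Averaged over the 4 conditions, none of the 4 genes passed the test of the strains. The difference of opi10- from opi10+ was -0.20 for psi1, with a 95% interval of -0.44 to 0.04, and -0.25 for mas5, with -0.63 to 0.13. It was 0.13 for bag101, with an interval of -0.01 to 0.26, and 0.21 for bag102, with 0.03 to 0.39. The adjusted p by limma was 0.51 for psi1, 0.594 for mas5, 0.474 for bag101 and 0.409 for bag102. Limma called 0% of all tested genes in this comparison, and 317 genes had an unadjusted p under 0.05. The intervals still allow differences of up to 0.63 log2 for mas5. Leaving out single arrays moved the difference between -0.43 and -0.10 for mas5, between -0.31 and -0.11 for psi1 and between 0.14 and 0.27 for bag102, with none called.

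Within single conditions the strains can be set side by side, 1 array against 1, with no test. The Hsp40 genes were lower in opi10- early in recovery. At 1 h psi1 had a normalized signal of 3285 in opi10- against 4552 in opi10+, a difference of -0.47 log2, and mas5 had 4167 against 5917, a difference of -0.50. A difference at least this large in either direction was seen in 2.66% of tested genes for psi1 and 2.11% for mas5. At 3 h mas5 had 1776 in opi10- against 2899 in opi10+, a difference of -0.70, which 1.59% of genes matched or passed. For psi1 the values at 3 h were 2687 in opi10- and 2470 in opi10+, a difference of 0.12.

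Before heat the strains stood the other way round for mas5, at 0.28 log2 higher in opi10-, and psi1 was at -0.26. At 43C the differences were -0.08 for mas5 and -0.20 for psi1, but with hybridization control centring both turned, to 0.12 for mas5 and 0.17 for psi1. The own change of mas5 from before heat to 3 h was accordingly -1.12 log2 in opi10- and -0.13 in opi10+, a difference of -0.99 that 1.38% of genes matched or passed. The psi1 fall from 1 h to 3 h was -0.29 in opi10- and -0.88 in opi10+. The BAG genes were somewhat higher in opi10- in all 4 conditions, between 0.08 and 0.21 for bag101 and between 0.05 and 0.43 for bag102, the last at 3 h. By condition, 31.4% to 58.5% of tested genes differed at least as far as bag101, and 6.09% (at 3 h) to 73.4% as far as bag102. Between 43.9% and 49.1% of all tested genes were lower in opi10- by condition. How many genes were higher in opi10- in all 4 conditions was not counted, so the shared sign has no background here. None of the 4 genes differed by as much as 2-fold between the strains in any condition. Of all tested genes 0.657% did before heat, 0.38% at 43C, 0.138% at 1 h and 0.553% at 3 h.

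**Figure D3:**
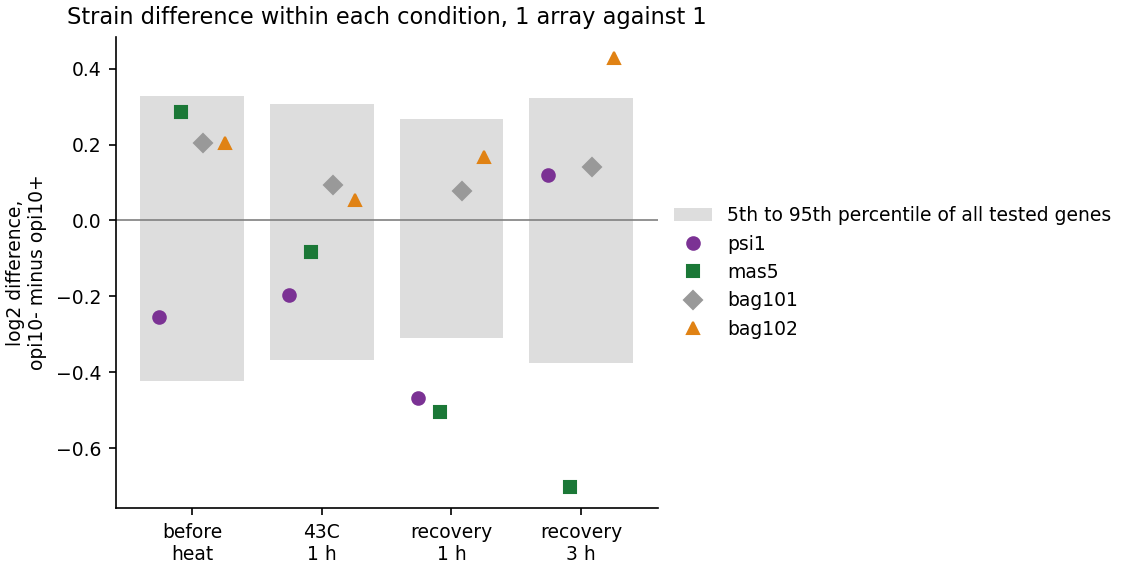
Difference of opi10- from opi10+ in each condition (log2, quantile normalized, 1 array against 1), with the grey bars spanning the 5th to 95th percentile of all 2892 tested genes. The points of psi1 and mas5 at 1 h, and those of mas5 and bag102 at 3 h, lie outside the bars.

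The list of HSP70 and HSP110 genes, which also holds those of the endoplasmic reticulum and mitochondria, had 6 measured genes of 7 listed. At 43C 4 rose, 2 were not called and none fell, with a median of 0.73 log2 against -0.07 over all genes, of which 32.8% rose and 39.8% fell. The stress-inducible HSP70 gene ssa1 rose by 5.07 ± 0.22 log2 (limma, adjusted p = 1.22e-05), more than psi1, and was still 3.38 above its level before heat at 3 h. The HSP110 gene pss1 rose by 1.12, bip1 of the endoplasmic reticulum by 1.25 and mitochondrial ssc1 by 0.34 (adjusted p = 0.00124, 0.00248 and 0.0101 in that order). The constitutively expressed ssa2 stood at 0.23 (limma, adjusted p = 0.0715) and the ribosome-associated sks2 at -0.19 (0.0704), neither called. As deposited, ssa1, pss1 and bip1 rose and sks2 fell by 0.54, while ssc1 was not called. At 1 h of recovery only ssa1 and pss1 of this list were called, both above their level before heat, and at 3 h only ssa1.

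Other J-domain genes did not share one course. Of 16 listed, 8 were measured, and 3 rose and 2 fell at 43C with a median of 0.19, or 2 and 6 as deposited. Over all genes the shares were 32.8% and 39.8%, or 11.2% and 73.7% as deposited, so these counts do not set the list apart. Without the opi10+ array at 43C 1 of them fell. The mitochondrial Hsp40 gene mdj1 rose by 1.96 ± 0.15 log2 (limma, adjusted p = 6.4e-05) and cwf23, whose product is found with the spliceosome, by 1.82 ± 0.13 (4.71e-05). The gene dph4, of the diphthamide pathway, fell by 1.76 ± 0.17 (limma, adjusted p = 0.000156). At 3 h of recovery cwf23 was 0.41 above its level before heat and dph4 at -0.54, while mdj1, at -0.41, was not called (limma, adjusted p = 0.0426, 0.0449 and 0.0701 in that order). Of 4 other nucleotide exchange factors listed, only mitochondrial mge1 was measured, and it was at -0.12 (limma, adjusted p = 0.254), or fell by 0.79 as deposited.

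HSP90, its partners and other cytosolic chaperones were listed together with the heat shock factor gene hsf1, a transcription factor gene. Of 19 listed genes 16 were measured, and 6 rose and 6 fell at 43C, with a median of 0.07, or 5 and 9 as deposited. The gene hsf1 was 1 of the 6 that rose, by 0.44 (limma, adjusted p = 0.0132), and was not called as deposited. Of all genes 32.8% rose and 39.8% fell, or 11.2% and 73.7% as deposited, so the normalized counts are near the background. The kinase-specific HSP90 co-chaperone gene cdc37 rose by 1.99 ± 0.17 log2, sti1, which links HSP70 to HSP90, by 1.91 ± 0.21, and the small heat shock gene hsp16 by 1.86 ± 0.28 (limma, adjusted p = 8.63e-05, 0.000269 and 0.00103 in that order). At 3 h of recovery sti1 was at -0.16 and cdc37 at -0.32, neither called (limma, adjusted p = 0.584 and 0.162), whereas hsp16 stayed at 1.68 (adjusted p = 0.00594). Of the heat-induced genes named here, psi1, ssa1, cwf23 and hsp16 were still called above their level before heat at 3 h. The means of mas5, pss1, bip1, ssc1, mdj1, cdc37 and sti1 had by then dropped below it, with none of these called. That of hsf1 was 0.24 above it, also not called (limma, adjusted p = 0.138).

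**Figure D4:**
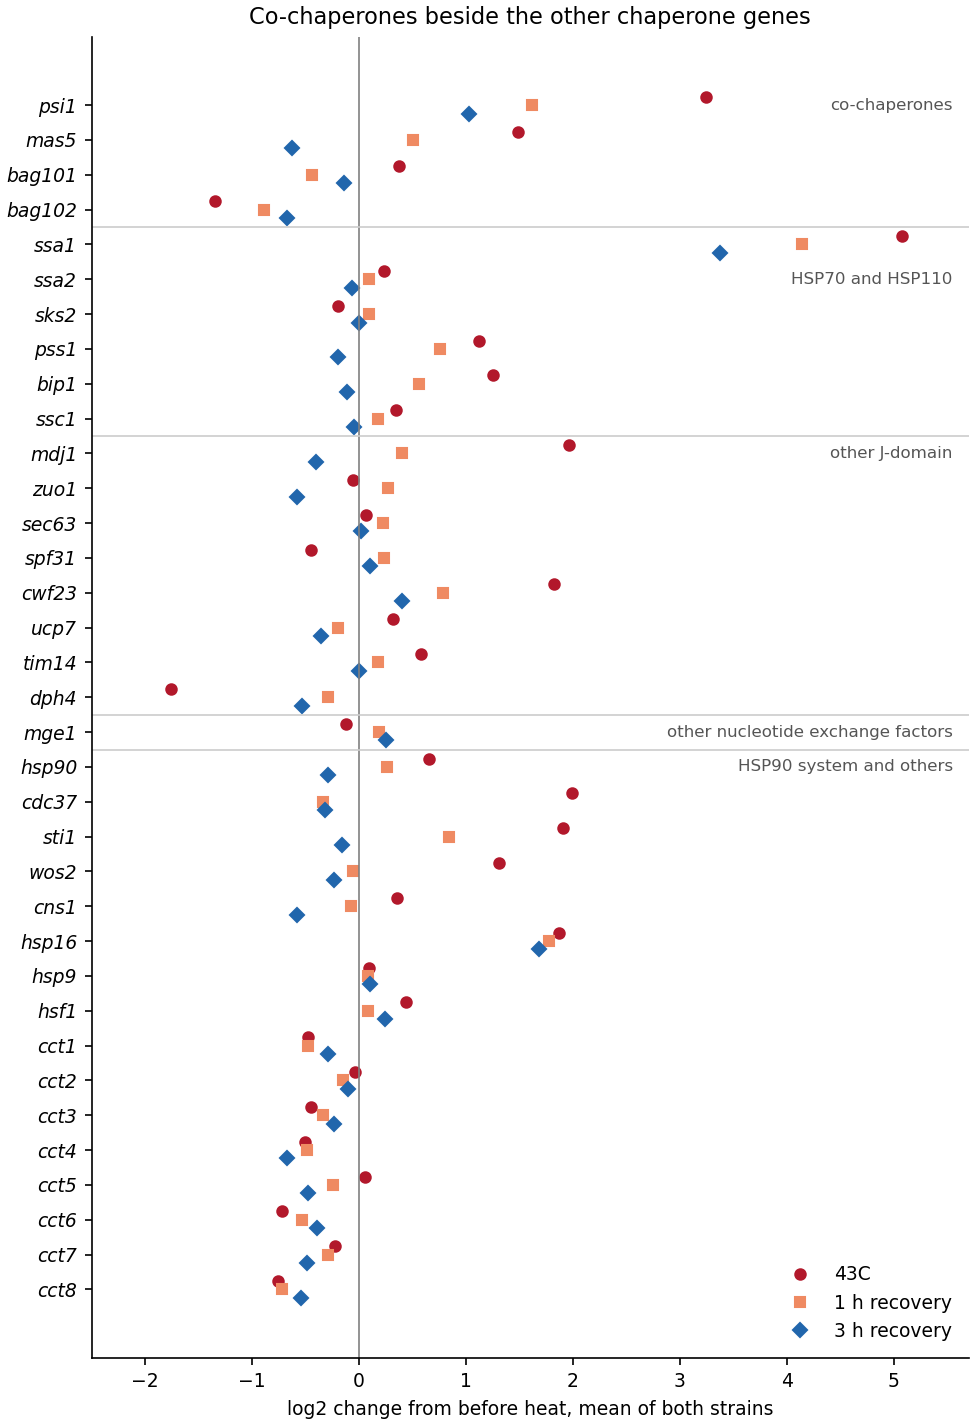
Change from before heat (log2, quantile normalized, mean of both strains) at 43C, 1 h and 3 h of recovery, for the 4 co-chaperone genes, the other listed chaperone genes and hsf1. The rise of psi1 at 43C is exceeded by that of ssa1, and dph4 and bag102 have the lowest values at 43C.

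The genes whose profiles were most like those of the 4 were sought among 1409 tested genes that varied by at least 1 log2, by Pearson correlation over the 8 arrays. These values are descriptions too. The profile of psi1 was matched by slt1, with r = 0.999, then by the zinc finger transcription factor gene rsv2 and by abp2, both with r = 0.99. The match with slt1 also held on the deposited scale, with r = 1.00, and over the 6 arrays other than those at 43C, with r = 1.00. From before heat slt1 changed by 3.22 log2 to 43C, 1.58 to 1 h of recovery and 0.99 to 3 h, beside 3.24, 1.62 and 1.03 for psi1. Whether these probe sets share sequence was not tested.

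For bag102 the closest were rim1, with r = 0.99, and gas5 and tom40, with r = 0.98, and these held on the deposited scale, with r from 0.98 to 0.99. The gene tom40 encodes the pore of mitochondrial protein import and gas5 a glucan-modifying cell wall enzyme. For bag101 the closest were ssb3, a subunit of replication protein A, dad2, of the kinetochore, and ist1, with r from 0.98 to 0.99, or 0.68 to 0.96 as deposited. For mas5 they were skb5, cti6 and ctu2, a gene of tRNA thiolation, each with r = 0.99, but as deposited these were 0.057, -0.55 and 0.84 in that order, so the match of skb5 and cti6 rests on the normalization.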

How the data were processed

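The authors deposited 1 table of intensity values on a linear scale for 10928 probe sets and 8 arrays. Per the labels' protocols, the labelled cRNA was biotinylated and prepared by a 3'-primed in vitro transcription kit. The sources used here do not say how probes were summarised or scaled. Symbols came from the platform annotation, updated by Entrez identifier to the ASM294v3 gene table. A single S. pombe gene was paired with 2914 probe sets, for 2896 genes in all. The annotation gave no name to 5177 other probe sets, which were not tested, so all shares are of annotated genes.

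Values were taken as log2(intensity + 16) and quantile normalized over the S. pombe probe sets. Fold changes are on that scale and understate changes of dim genes. A gene was tested if its mean signal exceeded 6.04, the 75th percentile of 2601 S. cerevisiae probe sets, which left 2892 genes, with the brightest probe set per gene. limma 3.58.1 (R 4.3.3; lmFit, eBayes) fitted condition and strain additively to the 8 arrays, with 3 residual degrees of freedom, and a Benjamini-Hochberg adjusted p under 0.05 within a contrast was called. The residual is how far the strains' responses differ. Since nothing says that arrays came from separate cultures, p-values measure only the spread between these arrays. The fit was tested on simulated data.

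The 4 genes and the chaperone lists were chosen with earlier results of these data known. Named beside them are all HSP70 and HSP110 genes, the 3 largest called changes at 43C per list, hsf1, and the 3 best correlated genes per member. Listed names that the annotation pairs with no probe set are not analysed: lhs1, xdj1, caj1, scj1, erj5, jac1, djc9, djc21, pam16, fes1, sil1, sls1, aha1, sba1 and hsp104. Whether an unnamed probe set reads any of them was not checked. A promoter motif search was planned and not made, since no sequence was used here. Alternatives were 3 other scalings, pseudocounts of 1 and 64, no filter and a filter at the 95th percentile, trended robust moderation, no strain term, and leaving out each array. Each of the 4 genes had a single probe set, so no other probe set could be tried.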

Additional observations from a re-analysis of the deposited data

How the results depend on the processing

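Of 408 values of the 4 genes between conditions under alternatives, 376 kept their direction and side of the threshold, 17 lost their call, 7 gained one and 6 called values of bag101 reversed. The other 2, of bag101 at 3 h against before heat on the deposited scale (0.064) and with hybridization control centring (0.15), changed sign without being called. Where no cause follows from the setting itself, it was not tested. On the deposited scale and with hybridization control centring, bag101 stood at -0.62 and -0.62 at 43C against before heat, at 0.27 and 0.32 at 1 h against 43C, and at 0.69 and 0.77 at 3 h against 43C. These scalings keep the drop of all genes at 43C. With hybridization control centring, calls were lost for bag101 at 1 h against before heat (-0.30) and at 3 h against 1 h (0.45), for bag102 at 3 h against before heat (-0.36) and for psi1 at 3 h against 1 h (-0.45). Without a strain term bag101 at 3 h against 1 h (0.30) was lost. On the deposited scale bag102 at 3 h against 1 h (0.32) was called, and mas5 at 3 h against before heat was called as deposited (-0.64), with hybridization control centring (-0.55) and with median centring (-0.79).

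Leaving out each array in turn gave ranges, for the comparisons whose call changed, of -0.49 to -0.39 (bag101, 1 h against before heat), 0.26 to 0.33 (bag101, 3 h against 1 h), 0.36 to 0.57 (bag102, 1 h against 43C), -1.16 to -0.82 (mas5, 1 h against 43C), 0.14 to 0.86 (mas5, 1 h against before heat), -1.42 to -0.82 (mas5, 3 h against 1 h), -0.98 to -0.27 (mas5, 3 h against before heat), and -0.80 to -0.37 (psi1, 3 h against 1 h). A condition left with 1 array is assumed to vary like the others. Called genes in all ranged from 844 to 1510 at 1 h against before heat (1530 with all arrays), from 597 to 1443 at 3 h against 1 h (1358), and from 583 to 1173 at 3 h against before heat (1212), and between strains from 0 to 1. With hybridization control centring they were 985, 846 and, between strains, 12, while the comparison of 3 h with before heat kept within 1.5 times. None of the 64 alternative values for the strain comparison of the 4 genes over all conditions was called, with adjusted p from 0.312 to 0.855.

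Of 80 strain differences within a condition, 12 moved by more than the residual SD. With hybridization control centring, bag101 differed by 0.043 before heat, by 0.50 at 43C and by 0.25 at 1 h, bag102 at 0.074, 0.50 and 0.34, and psi1 at 0.17 at 43C. As deposited, bag101 differed by 0.070 before heat, by 0.21 at 43C and by 0.058 at 3 h, and bag102 at 0.21 at 43C and 0.30 at 3 h. The controls' median at 43C was 9.41 log2 in opi10- and 9.71 in opi10+. Of 136 counts of other chaperone genes at 43C under alternatives, 128 stayed within 1.5 times.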

Other observations

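Subunits of the cytosolic chaperonin, the ring complex that folds actin and tubulin, went the other way from the Hsp40 genes. They were part of a wider chaperone list and were set apart after their values were seen, so their counts are a description. Of 8 subunit genes 6 fell and none rose at 43C, with a median of -0.46 log2, while 39.8% of all genes fell, and at 1 h and 3 h of recovery 6 were again below their level before heat and none above it, with medians of -0.41 and -0.44. At these times 27.3% and 22.2% of all genes were called lower. On the deposited scale all 8 fell at 43C, as did 73.7% of all genes. On that scale all 8 were also lower at 1 h, against 23.2% of all genes, and 6 at 3 h, against 11.4%. Without them, 6 of the other 8 genes of that list, hsf1 included, rose at 43C and none fell, while 32.8% of all genes rose. That none fell follows from the split, since the subunits held all 6 falls of the list. As deposited 5 of these 8 rose and 1 fell, against 11.2% and 73.7% of all genes.

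Some of the other chaperone lists were mostly lower in opi10- during recovery, with 1 array against 1 and no test. At 3 h all 6 measured HSP70 and HSP110 genes were lower in opi10-, from -0.86 for bip1 to -0.06 for sks2, as were 7 of 8 other J-domain genes, while 49.1% of all genes were lower. At 1 h these counts were 5 of 6 and 5 of 8, against 46.7% of all genes, and sti1 was at -0.75 and mdj1 at -0.59. The list of HSP90 and other cytosolic chaperones, which holds sti1, was split. Taken whole, it had 7 of 16 genes lower at 1 h and 8 of 16 at 3 h. Of its chaperonin subunits 1 of 8 was lower at 1 h and 4 of 8 at 3 h. Of its other 8 genes, set apart after the values were seen, 6 were lower at 1 h and 4 at 3 h. Their median at 1 h was -0.34. Mitochondrial mge1 stood at 0.040 at 1 h and -0.075 at 3 h. At 43C the strain differences of the HSP70 and HSP110 genes lay between -0.09 and 0.07. Before heat ssa1, at -1.09, and hsp16, at -1.04, were lower in opi10- while mas5 was higher by 0.28.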
